A study of Caenorhabditis elegans with 2 samples.

Results

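The 129 nuclear genes of biotype snRNA in the Ensembl WBcel235 gene models, the build also called ce11, were examined for binding of DIE-1 in Caenorhabditis elegans. They are 129 of 46890 nuclear genes and hold the genes of spliceosomal snRNAs, the sls-1 and sls-2 genes of the spliced leader RNAs and the smy genes. Members were taken from the biotype alone, with no measured value, although they were chosen with earlier results of these data known. A gene was said to have a peak when a peak summit lay within 200 bp of it. The chromatin came from 1 group of animals, for which the labels give the strain RW10316, whole young adult hermaphrodites and a time of 64 hours after synchronization as L1 larvae, which were starved after bleaching. The line carries DIE-1, a zinc finger transcription factor, with GFP and FLAG at its C-terminal end, and the labels name anti-GFP for the immunoprecipitation, although the antibody entry reads die-1. The group has 2 biological replicates and no second condition, so every value here is a description and no test was made. The labels say nothing of the promoter that drives the tagged protein, and chromatin of all tissues was mixed in each sample.

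Spliceosomal snRNAs pair with the ends of introns and with each other while introns are removed. U1 pairs with the 5′ splice site, U2 with the branch site, U5 holds the exon ends, and U4 keeps U6 inactive until U6 joins the catalytic centre. In nematodes many messages also receive a short leader exon from a separate RNA by trans-splicing. The SL1 leader of sls-1 genes goes to the first gene of an operon and to many single genes, and the SL2 leader of sls-2 genes goes mainly to later genes of operons. SmY RNAs, made by smy genes, are found with spliced leader particles. Most of these RNAs carry a site for Sm proteins, and U6 does not. RNA polymerase II makes most snRNAs and RNA polymerase III makes U6. Both depend on an element upstream of the gene called the proximal sequence element, and a TATA box is typical of the U6 type.

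The gene models name the 18 sls-2, 12 sls-1 and 10 smy genes but give most other members only a sequence name and no U number. Those were joined into groups by a sequence identity of at least 70% and each group was called after a short word that marks a spliceosomal RNA. The groups are the U1-word genes (13, with ACTTACC), U2-word genes (19, with GTAGTA), U4-word genes (5, with AGCTTTG), U5-word genes (12, with CTTTTAC) and U6-word genes (24, with ACAGAGA). The words were present in 12 of 13, 18 of 19, 5 of 5, 11 of 12 and 22 of 24 genes of these groups in that order, and each was found in at most 1.16% of the 346 snoRNA genes. Outside its own group, CTTTTAC also occurred in 2 of 18 sls-2 genes and GTAGTA in 1 of 16 other members. The remaining 16 members are called other. The genes below, from the WBcel235 genome of RefSeq, show 1 member each of the U1-word, U2-word and U4-word groups, with the group's word in capitals.
sup-6 (U1-word, II:12944803-12944967, minus strand): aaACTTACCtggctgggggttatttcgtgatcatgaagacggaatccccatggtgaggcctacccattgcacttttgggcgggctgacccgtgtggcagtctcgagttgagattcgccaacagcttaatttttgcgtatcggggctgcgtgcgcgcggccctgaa
F11A5.14 (U2-word, V:16225701-16225887, minus strand): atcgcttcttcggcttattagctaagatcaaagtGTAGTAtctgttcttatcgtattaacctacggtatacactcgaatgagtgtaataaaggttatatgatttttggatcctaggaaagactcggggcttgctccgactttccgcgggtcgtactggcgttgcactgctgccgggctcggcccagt
C52E4.8 (U4-word, V:11980118-11980261, plus strand): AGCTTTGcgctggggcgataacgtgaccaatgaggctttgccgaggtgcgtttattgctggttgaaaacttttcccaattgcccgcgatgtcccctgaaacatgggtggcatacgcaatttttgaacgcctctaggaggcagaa

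The spliced leader genes are shorter, and their first exon is the leader itself. In the 3 genes below, capitals mark the GT at which the leader is cut from the rest and the Sm-type word, an A followed by 4 to 6 T and a G. This word, read on the gene's strand, was present in 17 of 18 sls-2, 12 of 12 sls-1 and 10 of 10 smy genes, in 0 of 24 U6-word genes and in 23.1% of snoRNA genes. It was also present in 13 of 13 U1-word, 19 of 19 U2-word, 5 of 5 U4-word and 12 of 12 U5-word genes. Of the other members, 2 of 16 held it.
sls-2.1 (II:5844865-5844974, plus strand): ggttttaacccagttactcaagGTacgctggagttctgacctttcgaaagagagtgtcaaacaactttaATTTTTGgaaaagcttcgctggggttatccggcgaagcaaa
sls-2.8 (III:12250465-12250575, plus strand): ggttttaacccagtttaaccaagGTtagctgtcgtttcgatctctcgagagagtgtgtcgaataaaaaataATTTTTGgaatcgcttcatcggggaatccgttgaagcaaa
sls-1.10 (V:17120694-17120791, minus strand): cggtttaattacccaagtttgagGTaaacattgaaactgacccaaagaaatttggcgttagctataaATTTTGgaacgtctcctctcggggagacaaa

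Words shared by the 100 bases before the 5′ ends were searched on the gene's strand. The most common words of 6 bases were AACCCG, in 33.3% of members and 0.881% of the other nuclear genes, and TGTCGG, in 32.6% of members and 1.04% of the others. After these were seen, ACCC and TGTC separated by any 6 bases were searched as 1 element, by exact match. It was present before 43 of 129 members (33.3%), against 0.188% of the other nuclear genes, 7.8% of snoRNA genes, 0.49% of tRNA genes and 0.11% of protein-coding genes, and adding the opposite strand gave 33.3% of members and 0.237% of the others. TATAAA or TATATA, which share their first 4 letters, occurred in 17.1% of members and 14.5% of the other nuclear genes on the gene's strand, and in 24% of members and 20.2% of the others with both strands. The stretches below end at the base before each gene, and capitals mark the element and the last TATAAA or TATATA, whichever is present.
W05B2.8 (U6-word, III:10989579-10989678): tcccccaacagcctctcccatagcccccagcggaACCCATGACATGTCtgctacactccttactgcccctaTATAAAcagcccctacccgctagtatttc
F54D8.7 (U6-word, III:5080899-5080998): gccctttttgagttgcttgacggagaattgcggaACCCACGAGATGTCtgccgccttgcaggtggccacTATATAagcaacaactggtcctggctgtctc
K09B11.11 (U6-word, IV:13435887-13435986): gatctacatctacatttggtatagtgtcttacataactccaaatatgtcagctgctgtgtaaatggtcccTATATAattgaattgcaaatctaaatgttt
sup-6 (U1-word, II:12944968-12945067): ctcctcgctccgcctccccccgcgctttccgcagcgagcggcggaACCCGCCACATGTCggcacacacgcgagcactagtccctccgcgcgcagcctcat
F08G2.11 (U2-word, II:13852687-13852786): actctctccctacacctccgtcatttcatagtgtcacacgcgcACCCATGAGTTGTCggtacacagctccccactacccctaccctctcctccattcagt
F42C5.12 (U5-word, IV:7316632-7316731): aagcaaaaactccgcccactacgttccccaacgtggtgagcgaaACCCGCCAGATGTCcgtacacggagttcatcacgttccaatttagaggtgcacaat
sls-2.8 (sls-2, III:12250365-12250464): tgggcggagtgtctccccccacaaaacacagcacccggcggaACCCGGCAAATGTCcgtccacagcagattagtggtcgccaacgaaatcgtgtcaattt
sls-1.10 (sls-1, V:17120792-17120891): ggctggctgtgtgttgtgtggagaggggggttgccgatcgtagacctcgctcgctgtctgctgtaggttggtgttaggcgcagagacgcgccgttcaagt

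The distance from the end of the element to the gene was similar within a family. In the 5 U6-word genes that held it the distance was 52 bases, and these 5 also held TATAAA or TATATA. In the 11 sls-2 genes it was 43 to 44 bases, in the 7 U5-word genes 41 to 45 and in the 6 U2-word genes 43. The 9 U1-word genes with the element had it at 40 to 56 bases, with a median of 41. Of these, T27E4.12 and T27E4.22 overlap on the same strand, so the same stretch counts at 41 bases for the first and 56 for the second. TATAAA or TATATA was present before 18 of 24 U6-word genes, at a median of 30 bases from the letter T it starts with to the gene, and before 2 of 16 other members, 1 of 10 smy, 1 of 19 U2-word, 0 of 13 U1-word, 0 of 5 U4-word, 0 of 12 U5-word, 0 of 18 sls-2 and 0 of 12 sls-1 genes.

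The authors deposited 4 peak lists on ce11. The list of reproducible peaks has 1432 peaks with a signal of 79.4 or more, where signal is the authors' enrichment value, on a scale that the sources do not name. The relaxed lists, which include weak peaks, have 30000 entries for the pooled replicates, 23789 for replicate 1 and 29268 for replicate 2. The authors label the pooled list as peaks and background, so its weaker entries may be background. Each entry is called a peak here. Median peak width was 436 to 444 bp, wider than the longest member, at 187 bases. Read depth is unknown from these files. The die-1 gene itself had no summit within 200 bp, with the nearest pooled summit at 470 bp and the nearest reproducible one at 30613 bp.

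Reproducible peaks lay at 27 of the 129 snRNA-class genes (20.9%), against 4.41% of all 46890 nuclear genes, 77.1% of 612 tRNA genes, 22.3% of 346 snoRNA genes and 4.6% of 19973 protein-coding genes. The 27 genes shared 26 summits, which are 1.84% of the 1411 nuclear reproducible peaks. The families were unequal. A peak was present at 8 of 18 sls-2 genes (44.4%), 5 of 13 U1-word genes (38.5%), 7 of 24 U6-word genes (29.2%), 1 of 5 U4-word genes (20%), 2 of 12 U5-word genes (16.7%), 3 of 19 U2-word genes (15.8%), 1 of 16 other members, 0 of 12 sls-1 genes and 0 of 10 smy genes. Members of a family share sequence and often lie side by side, so they are not independent cases.

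In the pooled relaxed list 73 of 129 members (56.6%) had a summit within 200 bp, against 31.9% of nuclear genes. By class the pooled share was 54.4% of protein-coding, 51.4% of snoRNA, 90% of tRNA and 2.55% of piRNA genes. The snRNA-class share was thus near those of protein-coding and snoRNA genes in number, but the classes differ in length. The rule also counts summits inside a gene, so a longer gene has more room for one. Genes with a pooled peak had a median length of 121 bp in this class, 128 bp for snoRNA and 2593 bp for protein-coding genes. Replicate 1 alone gave 64 of 129 members, against 28.9% of nuclear genes and 49.1% of protein-coding genes. Replicate 2 gave 67 of 129, against 32.2% and 54.9%. Some members share a pooled peak, such as T27E4.12 with T27E4.22 and sup-39 with mir-1831, and each is counted. By family the pooled list reached 17 of 18 sls-2, 11 of 13 U1-word, 4 of 5 U4-word, 9 of 12 U5-word, 13 of 19 U2-word, 5 of 10 smy and 11 of 24 U6-word genes. It also reached 3 of 16 other members (18.8%) and 0 of 12 sls-1 genes. The U6-word genes thus had fewer members in the relaxed list than the U2-word genes but more in the reproducible one: their pooled signals had a median of 99.9 over 11 genes, against 65 over 13 U2-word genes. At the edge of the reproducible list, R07E5.16 with 80.7 and F40G12.13 with 81.2 were just inside, and sls-2.18 with a pooled signal of 79 and F32B5.9 with 78.1 were just outside.

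**Figure D1:**
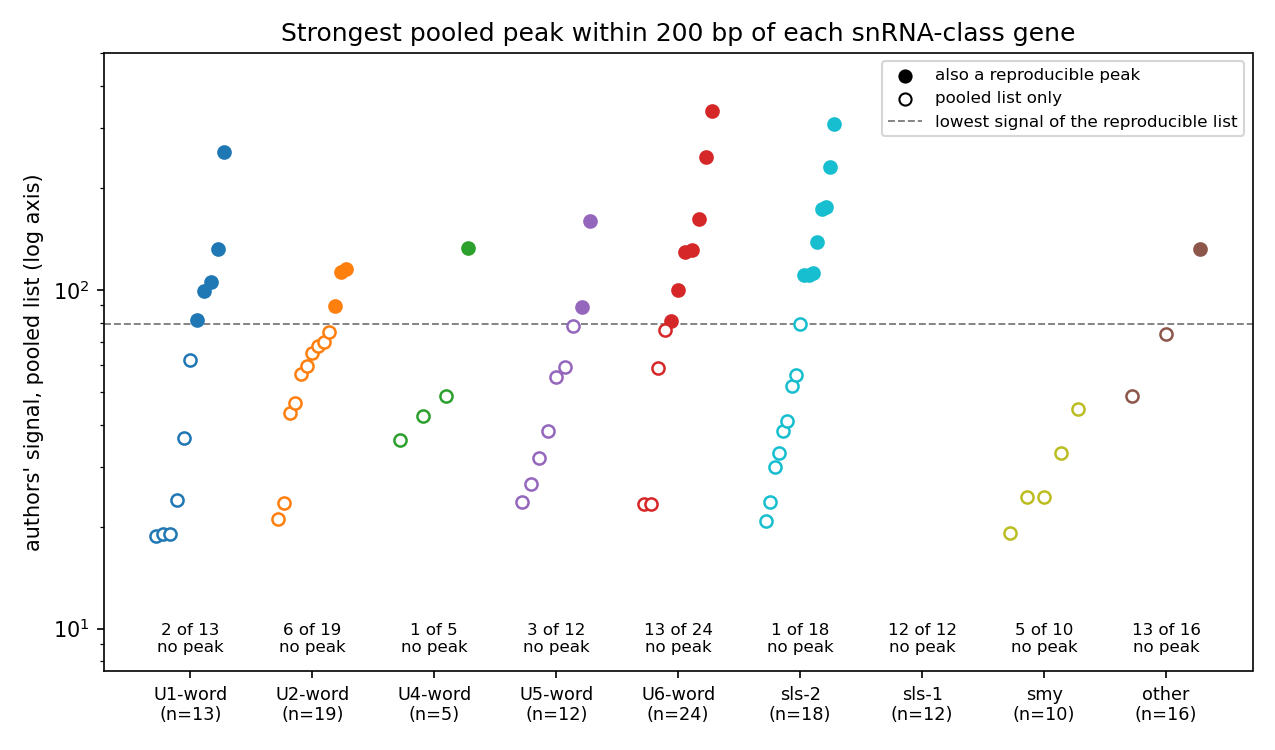
Authors' pooled signal (log axis) of the strongest peak with a summit within 200 bp of each snRNA-class gene, by family; each point is 1 gene, filled where a reproducible peak lies there, and the dashed line is the lowest reproducible signal, 79.4. Genes without a pooled peak are counted under each family, 12 of 12 for sls-1 and 1 of 18 for sls-2.

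The sls-2 genes, which encode the RNA that donates the SL2 leader, held 8 peaks with a median signal of 156. The highest was at sls-2.4 on chromosome I, with 139.5 in replicate 1, 174.6 in replicate 2 and 309 in the reproducible list, the number 41 of the 1411 nuclear peaks. Next came sls-2.1 on chromosome II with 81 in replicate 1, 149.9 in replicate 2 and 230.8 in the reproducible list. These 2 genes lie between protein-coding genes rather than inside one.

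At sls-2.8 on chromosome III replicate 1 gave 56.9, replicate 2 gave 118.1 and the reproducible list 175. At sls-2.9 on chromosome I the replicates gave 61.9 and 117.1 and the reproducible list 173.1. This summit was 143 bp upstream of sls-2.9 and inside the tRNA gene M01E5.t1, so it is assigned to a leader gene only through the 200 bp rule. It was the 1 of the 26 summits with a tRNA gene within 200 bp, and no snoRNA gene lay that close to any of the 26. At sls-2.2 on chromosome II replicate 1 gave 48.2, replicate 2 gave 97.7 and the reproducible list 138.8. The other 3 peaks, all on chromosome III, were weaker and nearly equal: 111.9 at sls-2.15, 110.6 at sls-2.16 and 110.4 at sls-2.14. In sls-2.15 the replicates were 55.7 and 57.3, in sls-2.16 44.8 and 70.7, and in sls-2.14 47.5 and 62.2, so replicate 2 was the higher in each of the 8 sls-2 genes.

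By chromosome, sls-2 genes had peaks at 2 of 4 on chromosome I, 2 of 3 on chromosome II, 4 of 6 on chromosome III and 0 of 5 on chromosome IV. The 5 on chromosome IV each had a pooled summit within 200 bp. Their signals ran from 20.8 at sls-2.12 to 52.1 at sls-2.17, in a list that starts at 18.4. Of these genes, sls-2.12 and sls-2.13 had no summit within 200 bp in replicate 2, and sls-2.11 had none in replicate 1. The replicate signals of sls-2.18, on chromosome III, were 36.1 and 45.4. The distance rule set sls-2.3 outside, since its nearest reproducible summit was 458 bp away, and its own pooled peak had a signal of 30. That reproducible summit, with a signal of 138.8, is the one inside sls-2.2. Only sls-2.6, in an intron of hgo-1, had no pooled summit within 200 bp.

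None of the 12 sls-1 genes, the source of the SL1 leader, had a summit within 200 bp in any of the 4 lists. They form a tandem array on chromosome V at V:17118154-17132107, with a median spacing of 976 bp, and 12 rRNA genes lie inside the same stretch. It held 0 summits of any list, and the pooled list had no summit over 23944 bp around it. The copies are also hard to tell apart by sequence. The 10 copies of 98 bases are identical to each other, as are the 2 of 68 bases, and a median of 0% of the 36-base words from 200 bp before to 200 bp after each gene occur once in the genome, with a maximum of 22.5%. For words of 50 bases the maximum was 29.4%. How the authors placed reads with several matches is not stated in the labels or headers, so missing binding and reads that could not be placed cannot be told apart at sls-1.

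**Figure D2:**
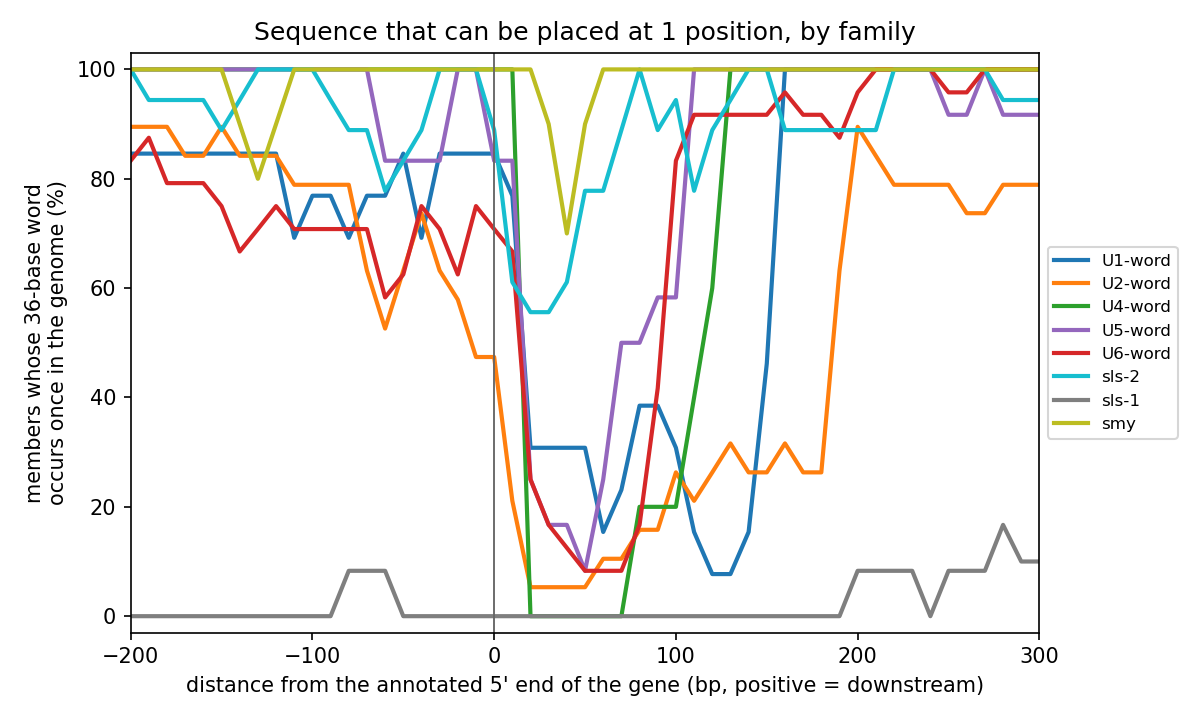
Share of members (percent) whose 36-base word occurs once in the genome, against distance in bp from the annotated 5′ end, 1 line per family. The sls-1 line stays at or under 16.7%, the U-word families drop inside the gene and recover past its end, and the sls-2 and smy lines stay above 50%.

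The 10 smy genes, which encode the SmY RNAs, had no reproducible peak. Their sequence is mostly unique: a median of 99.9% of the 36-base words in and around them occur once. In the pooled list 5 of them had a weak peak, highest at smy-10 on chromosome IV with a signal of 44.6, seen in replicate 2 with 35.8 and not in replicate 1. The nearest case by distance was smy-1, 272 bp from a reproducible summit with a signal of 96.7 and without a pooled summit inside 200 bp.

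Of the U1-word genes, sup-6 had the strongest peak, with 111.7 in replicate 1, 139.9 in replicate 2 and 255.8 in the reproducible list. Both sup-6 and sup-39 are known as U1 snRNA genes in which mutations change the choice of 5′ splice sites, and each lies in an intron of a host gene that runs the same way, F58G1.7 for sup-6 and C15F1.5 for sup-39. At sup-39 replicate 1 gave 74.8, replicate 2 gave 60.9 and the reproducible list 131.6. This summit was also counted for mir-1831, a member of 22 bases annotated inside sup-39, and is the single peak of the other members.

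The other 3 U1-word peaks lay between protein-coding genes. H27M09.6 on chromosome I had replicate signals of 34.4 and 79.9 and a reproducible signal of 105.2. F08H9.11 had 33 and 68.9 in the replicates and 98.9 in the reproducible list, and F40G12.13 had 36.9, 39.2 and 81.2. F08H9.11 and F40G12.13 each have a neighbour of the same family without a reproducible peak: F08H9.10 had a pooled signal of 24 and F40G12.14 one of 61.9. In T27E4.10 and T27E4.11 of the same family, at most 38.4% of the 36-base words in and around the gene occur once, and the pooled list gave no peak at T27E4.10 and 36.4 at T27E4.11.

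The U2-word genes are nearly identical, with a median identity of 98.9%, and 3 of 19 had a reproducible peak. Y57G11C.35 had 33.2 in replicate 1, 84.4 in replicate 2 and 114.8 in the reproducible list. F11A5.14 had 36.1, 75.5 and 112.7 in the same order, and F08G2.11 had 45.1, 45.7 and 89.3. The replicates were close at F08G2.11 and apart at Y57G11C.35, where replicate 2 was over the value of replicate 1 by the largest factor of all 27 genes, 2.54. A set of 7 identical copies had 0 reproducible and 6 pooled peaks, with signals of 23.5 to 75.1, the highest at F08G2.10. The 9 U2-word genes on chromosome I had no reproducible peak, and 2 of them, F15H9.5 and F15H9.6, have no 36-base word that occurs once.

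Among the U4-word genes, C52E4.8 was the only one with a reproducible peak, with 65.2 in replicate 1, 72.7 in replicate 2 and 133.1 in the reproducible list. T11F9.15, whose 144 bases are identical, had 19.7, 24.4 and a pooled signal of 36. Of the other 3 U4-word genes, K03B8.10 had a pooled signal of 48.7 and T11F9.16 one of 42.3, and F10D2.13 had no summit within 200 bp in any of the 4 lists. A U5-word pair also differed: F38E11.10 had 65.9 in replicate 1, 99.6 in replicate 2 and 159.6 in the reproducible list, while F38E11.11 with the same 122 bases had 29.3 in replicate 1 and no summit within 200 bp in the replicate 2 and pooled lists. The second U5-word peak was at F42C5.12, with 43.7, 57.8 and 89, and F32B5.9, in an intron of cpz-1, lay just under the reproducible list with a pooled signal of 78.1. In both identical pairs none of the 36-base words inside the gene were unique, and all words upstream and downstream of each copy were. The part of read placement in these differences was not tested.

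The strongest peak of the whole class was at a U6-word gene. W05B2.8, in an intron of dhc-4, a dynein heavy chain gene, had 173.5 in replicate 1, 167.8 in replicate 2 and 337.5 in the reproducible list, number 29 of the 1411 nuclear peaks. F54D8.7 on the same chromosome had 107.4, 144 and 247 in that order. Y9C9A.111 had 66, 97.1 and 161.8, C28A5.7 had 59.3, 65.8 and 130.8, and T08B6.62 had 50.1, 77 and 129. The lowest of the 7 were Y17G9A.85 with 50.6, 48.9 and 99.9 and R07E5.16 with 29.2, 53.2 and 80.7. Replicate 1 was the higher at W05B2.8 and Y17G9A.85, as at sup-39 with mir-1831 inside it, and at no other of the 27 genes.

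The 7 U6-word genes with a peak all carry the same 101 bases, and so do 10 without one. In this set of 17 genes the transcribed sequence is therefore the same and the flanks differ. The 36-base words inside the gene are all repeated, and upstream the share of words that occur once was 88.5% to 100% in the 7 genes with a peak and 6.67% to 100% in the 10 without, with a median of 42.7%. The plan counted TATAAA and TATATA together. A split by TATAAA alone was not planned, and its share over all nuclear genes was not counted. TATAAA stood in the 100 bases upstream of 8 of the 17, and 6 of these 8 had a peak. Of the 9 without TATAAA, 1 had a peak, F54D8.7, which carries TATATA at 31 bases. Of the 8 without TATAAA or a peak, 7 carry TATATA at 30 bases, so 16 of the 17 genes hold 1 of these words or both.

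The exceptions were named after their values had been seen. K09C6.12 has TATAAA at 29 bases like the genes with a peak, and its pooled signal of 76.2, with 26.1 in replicate 1 and 47.4 in replicate 2, was just under the reproducible list. Y17G9A.90 holds TATAAA at 10 bases and had no pooled summit within 200 bp. The 8 copies without TATAAA or a peak are in 2 clusters, 6 in introns of mam-3 and 2 in introns of F54C8.6, and their upstream words occurred once for at most 72.7%. These 8 thus had both repeated upstream words and no TATAAA. F54D8.7 lacks TATAAA but has 100% unique upstream and downstream words and a peak, and Y17G9A.90 has TATAAA and 100% unique words on both sides and no peak. The part of read placement in the difference was not tested. The other 7 U6-word genes, which differ in sequence, had neither a reproducible nor a pooled peak.

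**Figure D3:**
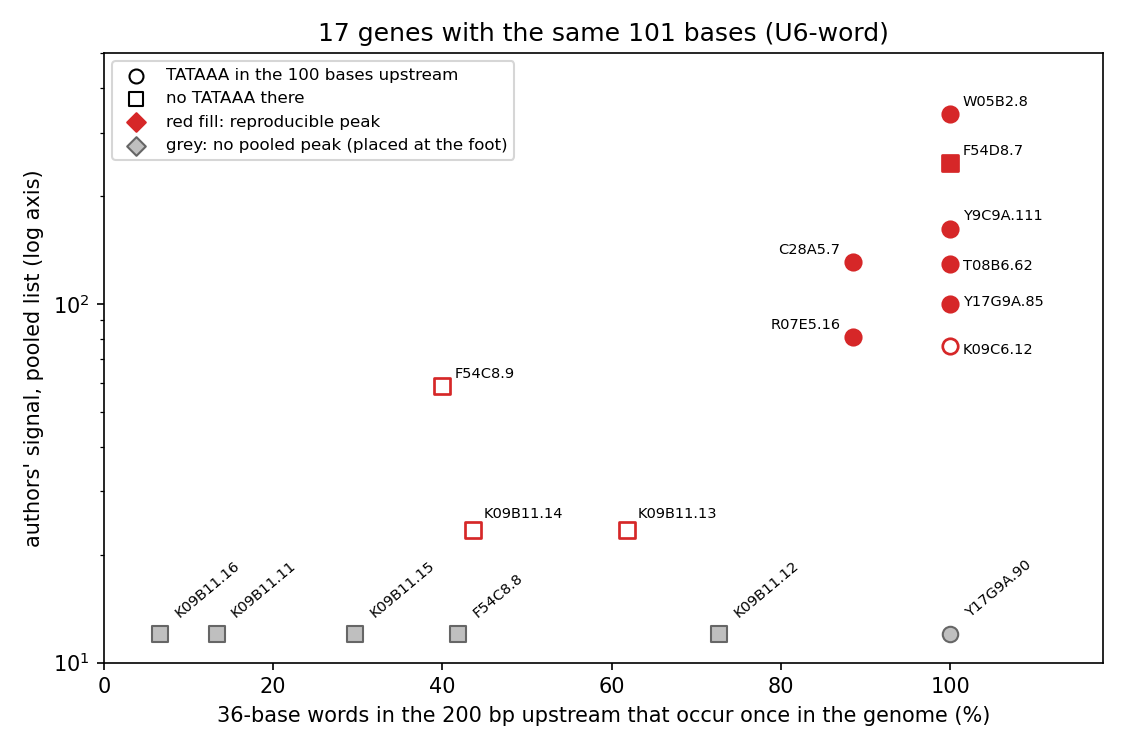
Authors' pooled signal (log axis) of the 17 U6-word genes with the same 101 bases, against the percent of 36-base words in the 200 bp upstream that occur once in the genome; circles hold TATAAA upstream and squares do not. The 7 genes with a reproducible peak (red) sit at 88.5% or more, with signals of 80.7 to 337.5, and the 6 genes without a pooled peak (grey) are placed at the foot.

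The summit's place on the gene differed by family. Over the 27 genes the median summit was 89 bp downstream of the annotated 5′ end, with quartiles of 48 and 186.5 bp, against a median of 11.5 bp for tRNA genes and −38 bp, which is upstream, for snoRNA genes. A longer gene allows larger offsets, and median lengths of these genes were 111, 72 and 95 bp in that order. The sup-39 summit enters the 27 values again for mir-1831, at 199 bp. In the long U2-word genes of 186 or 187 bases, the 3 summits lay at 195, 196 and 208 bp, which is 10 to 22 bp past the 3′ end. The 13 pooled U2-word summits did not keep to that side: 5 lay upstream of the gene, 3 inside and 5 downstream, and their median position was 45 bp. The median over all 73 members with a pooled peak was also 45 bp. In the U1-word genes sup-6, H27M09.6 and sup-39 they lay at 178, 196 and 206 bp, 14 to 42 bp past the 3′ end, and at F40G12.13 and F08H9.11 inside the gene at 52 and 85 bp. At C52E4.8 the summit was 60 bp past the 3′ end.

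Among the shorter U6-word genes 6 of 7 summits were within the 101 or 102 bases, at 5 to 100 bp, and that of F54D8.7 was 16 bp upstream. Among the 8 sls-2 genes with a peak 4 summits were inside, at 73 to 110 bp, 1 was beyond the 3′ end at sls-2.15, and 3 were upstream, at −6 bp in sls-2.16, −42 bp in sls-2.1 and −143 bp in sls-2.9. The 2 U5-word summits lay 50 bp upstream at F38E11.10 and inside, at 78 bp, at F42C5.12. Counted against the 3′ end, a measure added after the offsets were seen, 15 of 27 summits were within 50 bp of it, while 6 of 27 were within 50 bp of the 5′ end. In the pooled list the corresponding counts were 25 and 20 of 73.

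The inside of the U2-word genes holds a median of 0% unique 36-base words, the 200 bp upstream a median of 88.5% and the 200 bp downstream a median of 100%. The 3 reproducible U2-word summits lay where words are unique, although the upstream side of these 3 genes is also 81.8% to 100% unique. The 36-base word centred on the summit was unique for 21 of the 27 genes and repeated for 6, of which 4 are U6-word and 2 U1-word genes. In the window of 200 bp on each side, unique words made up 56.3% to 100% at the 27 genes with a peak and 0% to 100% at the 102 without, and 22 of the 102 but 0 of the 27 were under 50%. The part of read placement in the summit positions and in the counts was not tested. Between replicates the summits of these genes shifted by a median of 26 bp and at most 145 bp, at F08G2.11, where replicate 1 placed it at 50 bp and replicate 2 at 195 bp.

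The upstream element of ACCC, 6 bases and TGTC was present before 13 of the 27 genes with a peak and before 30 of the 102 without. Only exact matches were counted. Stretches that differ in 1 letter were scored as absent, as before F11A5.14 and C52E4.8, with a peak, and smy-1, without. Such stretches were not counted over all members. The element of sup-39 counts again for mir-1831, and that of T27E4.12 again for T27E4.22. In the pooled list 35 of the 43 genes with the element had a peak and 38 of the 86 without it. The 86 include 12 sls-1, 9 smy and 14 other members, with 0, 4 and 2 pooled peaks. By family, pooled peaks with and without the element were at 4 of 5 and 7 of 19 U6-word genes. They were at 5 of 6 and 8 of 13 U2-word and 11 of 11 and 6 of 7 sls-2 genes. The share was lower with the element at U1-word genes, with 7 of 9 and 4 of 4. The same held at U4-word (1 of 2 and 3 of 3) and U5-word genes (5 of 7 and 4 of 5). In the reproducible list the element's split by family was uneven. Among U6-word genes it stood before 4 of 7 with a peak and 1 of 17 without. The order was the opposite among sls-2 genes, with 4 of 8 with a peak and 7 of 10 without, and among U1-word genes, with 2 of 5 with a peak and 7 of 8 without. In the U5-word genes it was present before 1 of 2 with a peak and 6 of 10 without, and in the U2-word genes before 1 of 3 with a peak and 5 of 16 without. It stood before 2 of 5 U4-word genes, and not before C52E4.8, the 1 with a peak. W05B2.8, sup-6 and sls-2.8 are examples printed above. The exact element was absent before all 12 sls-1 genes and before 9 of 10 smy genes.

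By location, 14 of 55 members inside introns of protein-coding genes had a reproducible peak, as did 13 of 62 members between genes. Of members that overlap a coding gene's exon, 0 of 12 had one. Of these 12, 8 belong to the other members, whose single peak is shared with sup-39, so location and family are mixed. Shares by location were not counted over all nuclear genes. The start of a protein-coding gene lay within 200 bp of 2 of the 26 summits, at H27M09.6 and sls-2.8, and a gene of biotype ncRNA within 200 bp of 13. The same counts, and those of tRNA and snoRNA genes above, were not made over all 1411 nuclear reproducible peaks. Whether they are unusual is therefore not known. The signals of the 26 peaks had a median of 129.9, against 114.9 over all nuclear reproducible peaks, and 14 of 26 were above that second value.

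All 27 genes with a reproducible peak had a summit within 200 bp in both replicate lists. Replicate 2 had the higher signal at 23 of the 27, with a ratio of replicate 2 to replicate 1 from 0.815 to 2.54 and a median of 1.34. The scale of each list is its own, and the ratio of the lists' median signals was 1.14. At the top of the order, W05B2.8, sls-2.4 and sup-6 had the 3 highest values in replicate 1, and sls-2.4, W05B2.8 and sls-2.1 in replicate 2. Taking the 1432 strongest peaks of each replicate, replicate 1 gave 24 of 129 members, against 4.24% of nuclear genes, and replicate 2 gave 28 of 129, against 4.41%. The sls-2 genes numbered 8 and 9 in these lists and the U1-word genes 2 and 5.

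**Figure D4:**
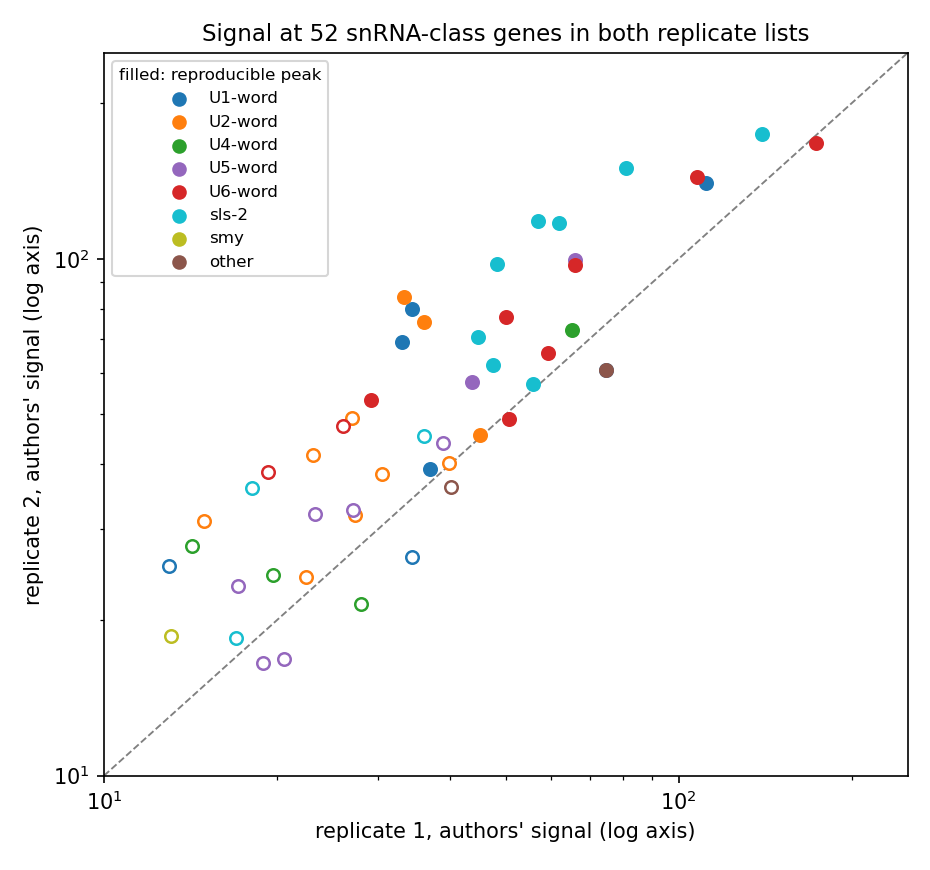
Authors' signal in replicate 1 and replicate 2 (log axes) at the 52 snRNA-class genes with a summit within 200 bp in both replicate lists, coloured by family and filled where a reproducible peak lies there. Of the 52 points 43 lie above the dashed line of equal signal, and W05B2.8 and sls-2.4 are at the top right.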

How the data were processed

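Chromatin immunoprecipitation and sequencing was done on 2 biological replicates of 1 group. Per the file headers and the accompanying lists of files, the authors called peaks for each replicate and for the pooled replicates against a control and derived the reproducible list from these. For the peak caller, the aligner and the reproducibility threshold no name or value is given in the sources used here. The control was not analysed here. Each deposited peak has a signal, read as the authors' enrichment value, a deposited −log10 q-value, which was not used for ranking, and a summit offset from the peak start, which counts from 0. Lists on ce10 were not used here.

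Positions were placed on WBcel235 with Ensembl 115 gene models, and all 129 members took RefSeq names by WormBase ID, 35 of them unlike the Ensembl name. A gene took the strongest peak with a summit within 200 bp, on either side or inside. Identity was that of a global alignment over the longer gene, for lengths within 60%. Groups needed 5 genes and no name of their own, and a word in over 50% of them. Words of 36 and 50 bases were counted on both strands of the genome. Python 3.11.15, numpy 2.4.6, pandas 2.3.3 and biopython 1.88 were used. The search for peaks and words was tested on simulated data. The text names members with a reproducible peak (up to 30), up to 5 from 200 to 500 bp of one, the strongest pooled member of families without one, and die-1. Other names were chosen after their values were seen. The members and lists were chosen with earlier results of these data known. The gene sequences of the U5-word and U6-word groups are not reported here.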

Additional observations from a re-analysis of the deposited data

How the results depend on the processing

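The alternatives were summits within 100 bp or 500 bp, the 50% of peaks with the highest signal, peak intervals that overlap the gene by 1 bp, the nearest short RNA gene only, the 1432 strongest peaks of 1 replicate, and the pooled list. Leaving out members inside another member was added after seeing the data. The count of 27 genes with a peak became 15 with the 50% of peaks of highest signal and 73 in the pooled list, that of 8 sls-2 genes became 5 and 17, and that of 19 spliceosomal and other genes became 10 and 56. The median offset of 89 bp became 100 bp within 500 bp and 45 bp in the pooled list. With each replicate left out, the counts ran from 24 to 28, from 8 to 9 for sls-2 and from 16 to 19 for the others, and the offset from 78.5 to 88.5 bp. The count for sls-1 was 0 in each alternative, replicates left out included. The nearest summit of any list lay 3834 bp from an sls-1 gene, so no window or list used here could change that count. Every sls-1 value is nevertheless among those counted as unchanged below. In 36 of the 45 values the result stayed within 1.5 times, or for the offset within 7.07 bp, the standard deviation between the replicate lists. The cause of the others was not tested, beyond the number of peaks each list holds. No paired analysis was possible because the series holds 1 group. Without read counts, no depth limit could be set.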
